A study of Macaca mulatta with 2 samples.

Results

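Blood vessels of the brain are built from endothelial cells, which line the lumen, and from mural cells, which wrap it. Tight junctions, low vesicle traffic and a set of transporters in the endothelium form the blood-brain barrier. Pericytes cover capillaries and help to maintain that barrier, and smooth muscle cells ring arteries and arterioles with a contractile coat. The 45 genes described here were chosen by name from the 33618 genes of the count table, with earlier results of these data known. The rule that lists them uses no measured value itself. Of them, 34 are endothelial or barrier genes and 11 are pericyte or smooth muscle genes. All 45 were in the table and all 45 reached 1 CPM (a read count scaled to a common library size) in at least 1 of the libraries. SELE, CNN1 and FLI1 reached it only in the sevoflurane library.

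The RNA came from the prefrontal cortex of 2 infant rhesus macaques, a control animal and an animal that had inhaled the anesthetic sevoflurane. Both animals are labelled as 28 days old. The treated animal received 2.5 to 3% of the gas for 4 h per exposure, on postnatal days 7, 14 and 28 by the labels, whereas the methods place the later exposures on other days. Tissue was taken straight after the last exposure, and how the control animal was handled is not given in the sources used here. Other animals of the study were not analysed here, so there are no replicates and no p-value, and each value compares 2 animals rather than 2 conditions.

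Depth came to 16960880 control reads and 9839105 sevoflurane reads. Counts were scaled by the TMM method to CPM, and ratios are given on the log2 scale as sevoflurane over control, with a prior count of 2 added. The interval given with each ratio is an exact Clopper-Pearson 95% interval from the reads in both libraries. Intervals cover counting error only, and the variation between animals is not in them. No molecular identifiers are named, so copies of the same molecule may count as separate reads and the intervals may be too narrow. The 7 Y-linked genes looked at held 3 control and 4308 sevoflurane reads, which points to a female control animal and a male treated animal. The paper lists only females in its control group and both sexes in its anesthesia group. Sex, animal and exposure therefore cannot be told apart in any ratio given here. For the check of the labelled tissue, the neuron marker SNAP25 had 21120 control and 12658 sevoflurane reads, while the liver genes ALB and APOA1 and the pancreatic gene INS had 0 reads in both libraries. The muscle genes TNNT2 (75 and 145 reads) and ACTN3 (6 and 13 reads), also listed as markers of tissue outside the brain, were detected in both.

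The highest ratios among the 45 genes were those of SELE and of smooth muscle genes. Genes are called higher or lower here if they differed at least 2-fold and their interval excluded equal expression. By that rule 5 of the 45 genes were higher in the sevoflurane library and 0 were lower. That is 11.1% higher, against 7.56% higher and 5.47% lower among the 18050 genes tested, so the count over all 45 was near that of the whole table. The 5 were MYH11, CNN1 and ACTA2 of smooth muscle, the endothelial transcription factor SOX17 and the leukocyte adhesion molecule SELE. Of these, SELE and CNN1 entered the count only through their sevoflurane reads. The median log2 ratio of the 45 genes was 0.17, and that of all genes tested was -0.0048. Of the 45 ratios, 29 were above 0 and 16 below, and 49.7% of all genes tested were above 0. Since this is bulk tissue, more cells of a type and more RNA per cell cannot be told apart in any of these values.

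**Figure D1:**
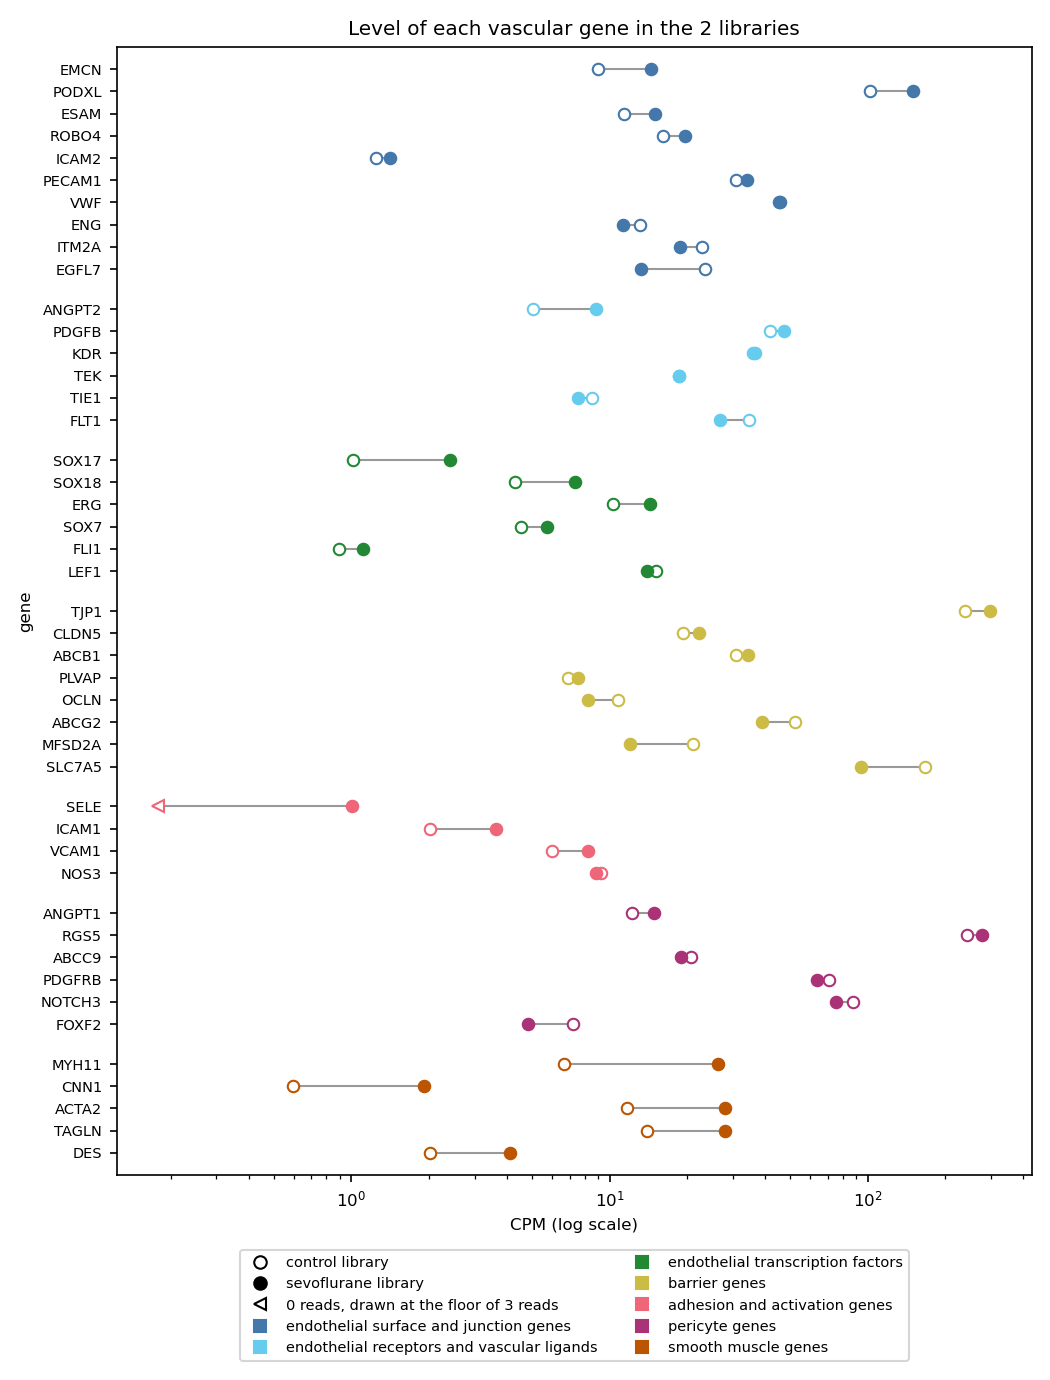
Level of each of the 45 genes in CPM, on a log axis, with open points for the control library and filled points for the sevoflurane library, grouped by role. The smooth muscle genes lie to the right in the sevoflurane library, MYH11 moving from 6.66 to 26.3 CPM, while most endothelial pairs lie close together. CPM is not divided by gene length, so levels are comparable within a gene and not between genes. SELE had 0 control reads and is drawn at the floor of 3 reads.

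All 5 smooth muscle genes were above equal expression beyond counting error in the sevoflurane library, as were 28.4% of all genes tested, and 3 of the 5 were higher at 2-fold, as were 7.56% of all genes. The median log2 ratio was 1.24, and the summed level was 34.9 CPM in control and 88.1 CPM in sevoflurane tissue (log2 ratio 1.33, 95% interval 1.18 to 1.49). MYH11, the smooth muscle myosin heavy chain, had 112 control and 261 sevoflurane reads, or 6.66 and 26.3 CPM. Its log2 ratio was 1.96 (1.65 to 2.31), and it ranked 364th from the top of all genes tested. Among the 45 genes only SELE had a higher ratio.

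ACTA2, smooth muscle actin, had 197 control and 277 sevoflurane reads. In CPM these were 11.7 and 27.9, a log2 ratio of 1.24 (0.98 to 1.52). Actin genes are close in sequence, and how the authors counted reads that match several of them is not given in the sources used here. The ACTA2 value is uncertain for that reason. MYH11 overlaps NDE1 by gene order, which had 1 and 0 reads, and how reads of that pair were assigned is not known either. TAGLN, the actin-binding protein transgelin, had 234 and 277 reads (13.9 and 27.9 CPM), and its ratio of 0.99 (0.75 to 1.26) lay just under the 2-fold threshold. CNN1, which encodes calponin, had 10 and 19 reads (log2 ratio 1.47, 0.51 to 2.95), and it overlaps ECSIT by gene order, with 706 and 481 reads. DES, the muscle intermediate filament desmin, had 34 and 41 reads and a ratio of 0.98 (0.34 to 1.73), also just under the threshold. Both CNN1 and DES rest on few reads and their intervals are wide.

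The same direction was seen in part of the wider contractile program, in a list of 18 genes in the table of which 16 were tested. There, 3 were higher (18.75%, against 7.56% of all genes tested) and 0 lower, with a median log2 ratio of 0.38. Beyond counting error, 8 were above equal expression and 1, SYNM (-0.13), was below it, against 28.4% and 28.1% of all genes. The 3 were the tropomyosin TPM2 (196 and 333 reads, 1.51), the myosin light chain MYL9 (148 and 220 reads, 1.32) and the leiomodin LMOD1 (64 and 87 reads, 1.17), all parts of the contractile filaments. TPM1 (0.01), CALD1 (0.03) and the transcription factor SRF (0.26) differed less. MYOCD, the cardiac and smooth muscle coactivator, had 21 and 19 reads, and its interval of -0.36 to 1.58 held equal expression. KCNMB1, a potassium channel subunit of smooth muscle, had 50 and 20 reads and a ratio of -0.53 (-1.39 to 0.21), so not every gene known from smooth muscle was above equal expression.

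**Figure D2:**
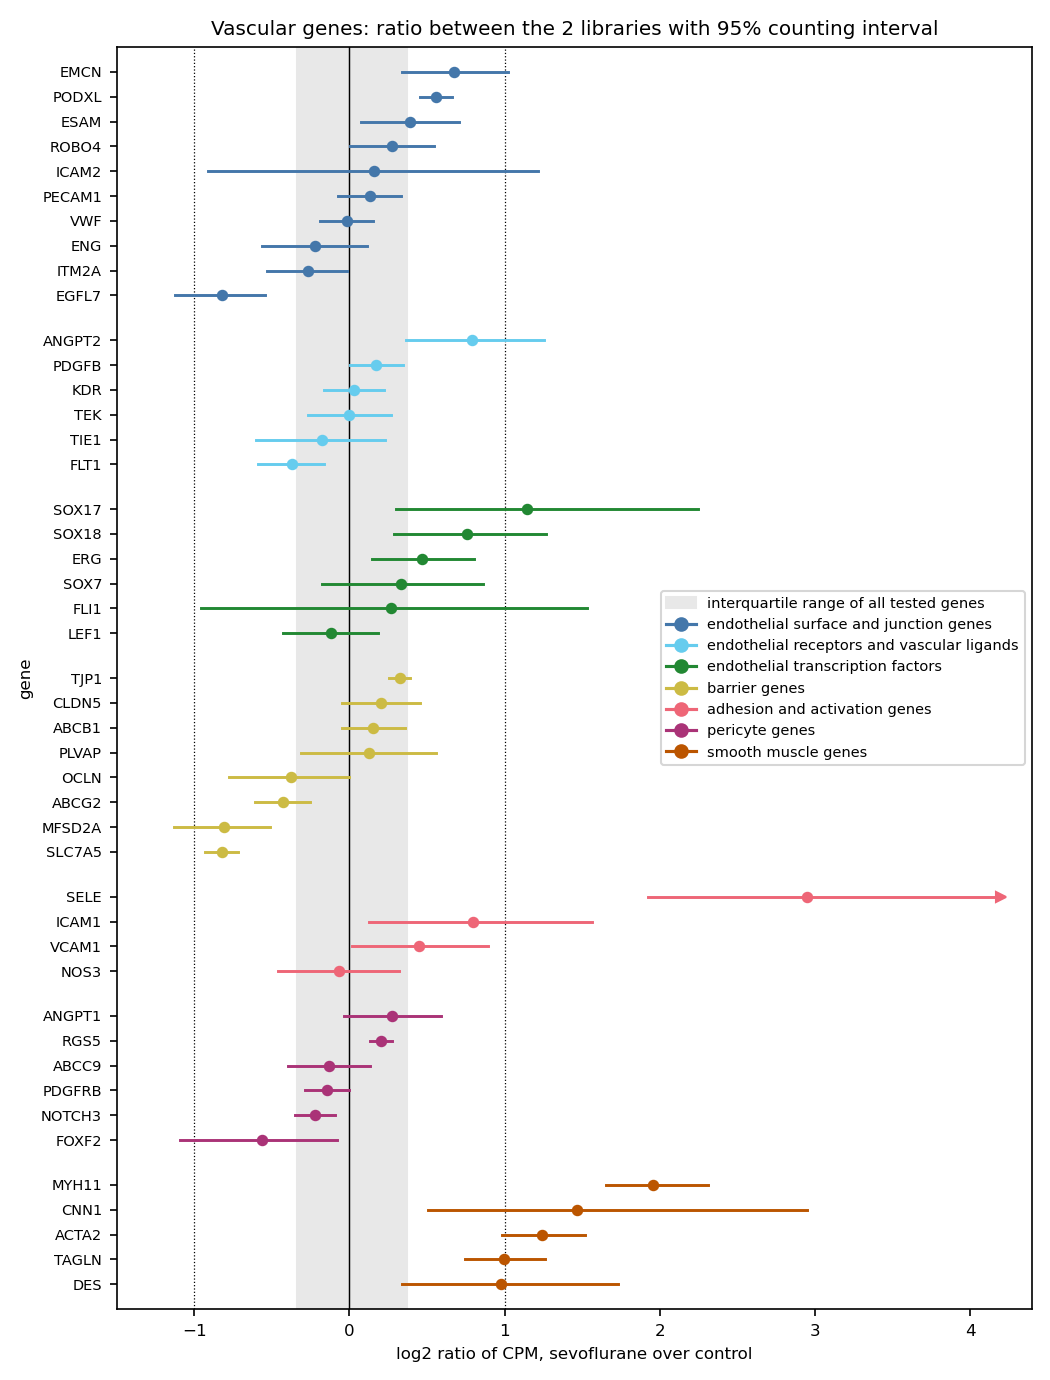
Log2 ratio of CPM, sevoflurane over control, for each gene (points) with its 95% counting interval (lines), grouped by role. The grey band is the interquartile range of all genes tested, from -0.34 to 0.37, dotted lines mark 2-fold, and the arrow marks the interval of SELE, which has no upper end and whose point depends on the prior count. The 5 smooth muscle genes lie to the right of the band, and the endothelial and pericyte genes lie on both sides of 0.

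The 6 pericyte genes did not share this difference. None was higher or lower at 2-fold, against 7.56% higher and 5.47% lower among all genes tested. Beyond counting error, 1 was above equal expression and 3 below it (16.7% and 50%, against 28.4% and 28.1% of all genes). The median log2 ratio of the 6 pericyte genes was -0.14 and the ratio of their summed level was 0.05 (0.00 to 0.10), which differ in sign. RGS5 alone held 4066 of the 7400 control reads on these genes. RGS5, a regulator of G protein signaling that marks brain pericytes, had 2765 sevoflurane reads (242 and 278 CPM, log2 ratio 0.20, 0.13 to 0.27). PDGFRB, the receptor through which endothelial PDGF-B recruits pericytes, had 1185 and 634 reads and a ratio of -0.14 (-0.28 to 0.00). NOTCH3, a Notch receptor of mural cells, had 1475 and 748 reads and a ratio of -0.22 (-0.35 to -0.09). These 3 genes lay on both sides of equal expression, each by less than 2-fold over its whole interval.

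The other pericyte genes had fewer reads. ABCC9, a potassium channel regulator, was at -0.13 (-0.39 to 0.13) with 348 and 188 reads. ANGPT1, the ligand that stabilizes vessels through the receptor TEK, was at 0.28 (-0.04 to 0.59) with 205 and 147 reads. FOXF2, a transcription factor needed in brain pericytes, had 121 and 48 reads, or 7.20 and 4.83 CPM, and was the lowest of the mural genes at -0.56 (-1.09 to -0.08). Among 15 further pericyte genes, of which 14 were tested, 3 were higher (21.4%, against 7.56% of all genes tested) and 0 lower. Their median log2 ratio was 0.26. Beyond counting error, 6 were above equal expression and 2 below it (42.9% and 14.3%, against 28.4% and 28.1% of all genes). Those past 2-fold were ANPEP (23 and 36 reads, 1.31), IFITM1 (39 and 68 reads, interval 0.97 to 2.17) and ZIC1 (139 and 171 reads, 1.04), none of which is restricted to pericytes. The other 3 above equal expression were the transporter gene ATP13A5 (0.99, 0.27 to 1.86) and the transcription factors TBX18 (0.64, 0.20 to 1.11) and FOXC1 (0.52, 0.20 to 0.85). The 2 below it were the proteoglycan CSPG4 (-0.22) and the adhesion molecule MCAM (-0.32).

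The reads of smooth muscle, pericyte and endothelial genes were also set against each other within each library, which does not depend on the scaling. In the control library there were 3.42 reads on smooth muscle genes (95% interval 3.15 to 3.72) for every 100 reads on the 34 endothelial genes, and in the sevoflurane library 8.38 (7.82 to 8.98). Against the pericyte genes, the smooth muscle reads were 7.93 per 100 (7.28 to 8.63) in the control and 19.3 (17.9 to 20.8) in the sevoflurane library. The reads on pericyte genes per 100 endothelial reads were 43.2 (42.0 to 44.4) and 43.4 (41.9 to 44.9). Relative to the endothelial genes, smooth muscle reads differed 2.45-fold, while the intervals of the pericyte share overlapped. The pericyte share rests largely on RGS5 (log2 ratio 0.20), which held 4066 of the 7400 control and 2765 of the 4530 sevoflurane pericyte reads. Of the 6 pericyte genes, 4 had a log2 ratio below 0. Without TJP1, SLC7A5 and PODXL, which other brain cells also express, the endothelial reference was smaller and the smooth muscle difference was 2.55-fold.

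**Figure D3:**
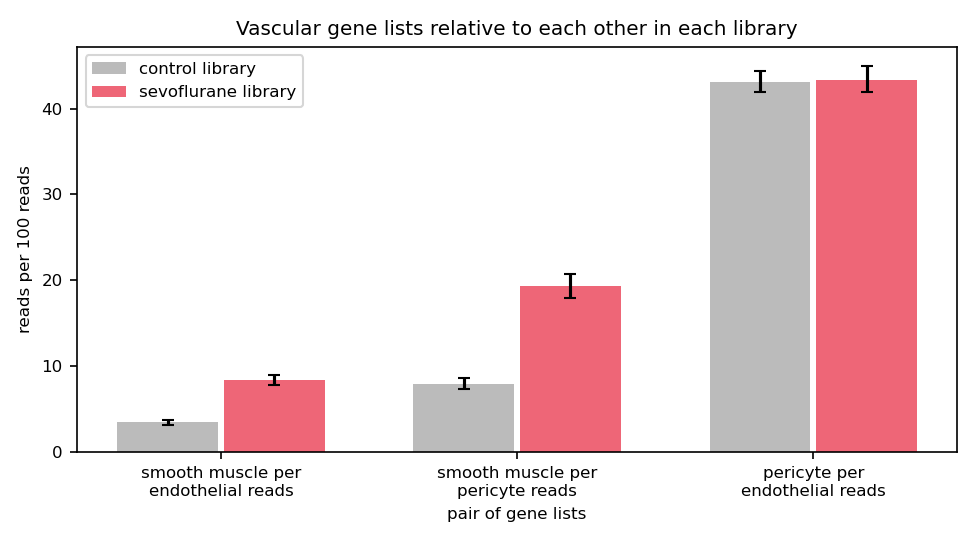
Reads on one gene list per 100 reads on another list of the same library, in the control (grey) and sevoflurane (red) library, with 95% counting intervals as error bars. Smooth muscle reads per 100 endothelial reads were 3.42 and 8.38, with intervals that do not overlap, and pericyte reads per 100 endothelial reads were 43.2 and 43.4. RGS5 alone held 4066 of the 7400 control and 2765 of the 4530 sevoflurane reads on pericyte genes.

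Some markers of the meninges, in which the larger arteries of the brain surface run, were higher along with the smooth muscle genes. Of 11 meningeal fibroblast genes 5 were higher (45.5%, against 7.56% of all genes tested), 0 were lower and none was at 0 reads. Their summed levels were 424 and 625 CPM in the control and sevoflurane libraries. The 5 were SLC13A4 (62 and 650 reads, log2 ratio 4.09), SLC22A6 (35 and 102 reads, 2.22), ALDH1A2 (22 and 32 reads, 1.21), the collagen COL1A1 (1307 and 1708 reads, 1.14) and SLC6A13 (199 and 247 reads, 1.06). The fibroblast proteoglycans DCN (0.06) and LUM (-0.11) were not distinguishable from equal expression. The collagen COL3A1 was at -0.44 (-0.96 to 0.05), and PDGFRA, a receptor that oligodendrocyte precursors also express, at -0.40 (-0.49 to -0.30). The 6 red blood cell genes in the table summed to 24.9 and 81.2 CPM. HBB, the beta globin, had 350 and 672 reads (1.69, 1.51 to 1.89), and HBA2 had 61 and 49 (0.43, -0.13 to 1.01). HBA1 (0 and 70 reads) and ALAS2 (5 and 11 reads) reached 1 CPM only in the sevoflurane library, and reads of the near-identical HBA1 and HBA2 can be split by counting. The part of meninges or of blood in the smooth muscle values was not tested.

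The endothelial genes as a whole differed little between the libraries. Of the 34, 2 were higher (5.88%) and 0 lower at 2-fold, against 7.56% and 5.47% of all genes tested. Their median log2 ratio was 0.16, and the summed levels were 1020 and 1051 CPM (log2 ratio 0.04, 0.01 to 0.08). TJP1, SLC7A5 and PODXL, which other brain cells also express, held 49.7% of the control and 51.6% of the sevoflurane reads in that sum, and without these 3 the ratio was -0.01 (-0.06 to 0.04). For 24 of the 34 genes the whole counting interval lay inside 2-fold in either direction. Of all 34, 13 were above and 6 below equal expression beyond counting error (38.2% and 17.6%), against 28.4% and 28.1% of all genes tested.

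Of the 10 surface and junction genes, 4 were above and 2 below equal expression beyond counting error, against 28.4% and 28.1% of all genes tested. The other 4 are given first. PECAM1, the platelet endothelial adhesion molecule at cell contacts, had 521 control and 337 sevoflurane reads (31.0 and 33.9 CPM, log2 ratio 0.13, -0.07 to 0.33). VWF, the clotting factor stored in endothelial granules, had 771 and 450 reads (45.9 and 45.3 CPM, -0.02, -0.19 to 0.15). ENG, a coreceptor for TGF-beta ligands, was at -0.22 (-0.56 to 0.11), and ICAM2, an adhesion molecule for leukocytes, was at 0.16 (-0.91 to 1.22) with 21 and 14 reads. None of these 4 could be told from equal expression at this depth.

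The remaining surface genes split in direction. EMCN, a sialomucin of capillaries and veins, had 152 and 144 reads and the largest ratio of the group at 0.67 (0.34 to 1.02). PODXL, a related surface sialomucin that neurons also express, had 1709 and 1486 reads (0.56, 0.46 to 0.66), and its neighbour MKLN1, whose span it overlaps, had 1107 and 602. The junction protein ESAM was at 0.39 (0.07 to 0.71) and the guidance receptor ROBO4 at 0.27 with an interval whose lower end was at 0.00. On the other side, EGFL7, a secreted factor of growing vessels, had 394 and 131 reads, or 23.4 and 13.2 CPM, and a ratio of -0.82 (-1.13 to -0.54), the lowest of all 45 genes. ITM2A, a membrane protein abundant in brain endothelium, was at -0.27 (-0.53 to -0.02). EMCN and EGFL7 passed a threshold of 1.5-fold, in opposite directions.

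Of the 4 receptors for vascular growth factors, FLT1 was below equal expression beyond counting error and the other 3 could not be told from it. KDR, the main signaling receptor for VEGF, had 603 control and 364 sevoflurane reads (0.03, -0.16 to 0.22). FLT1, which binds VEGF and largely acts as a trap for it, had 583 and 266 reads (-0.37, -0.59 to -0.16). FLT1 reads per KDR read were 0.967 (0.861 to 1.09) in the control and 0.731 (0.622 to 0.858) in the sevoflurane library. The intervals of these ratios did not overlap. VEGFA, the ligand, was at -0.21 (-0.39 to -0.03).

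The angiopoietin receptor TEK had 313 and 185 reads, or 18.6 CPM in both libraries (0.00, -0.27 to 0.27), and the related TIE1 was at -0.18 (-0.60 to 0.23). ANGPT2, the ligand that endothelial cells release to loosen vessel contacts, had 85 and 88 reads, or 5.06 and 8.86 CPM (0.79, 0.36 to 1.26). ANGPT2 reads per TEK read were 0.272 (0.211 to 0.346) in the control and 0.476 (0.365 to 0.616) in the sevoflurane library. The ratio to the opposing ligand ANGPT1 was 0.415 (0.318 to 0.536) and 0.599 (0.454 to 0.785), so against ANGPT1 the intervals overlapped. ANGPT2 overlaps MCPH1 by gene order, which had 374 and 312 reads, and whether counting used the strand is not stated, so part of these reads is uncertain. PDGFB, the growth factor for pericytes, which neurons also express, was at 0.17 (0.00 to 0.34) with 704 and 469 reads.

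In the 19 other genes of the VEGF and Notch pathways, 18 tested, 1 was higher and 1 lower. That is 5.56% each, against 7.56% higher and 5.47% lower among all genes tested, and the median of the list was 0.06. PGF, the placental growth factor, which binds FLT1, had 15 and 23 reads (1.24, 0.37 to 2.42). PGF reached 1 CPM only in the sevoflurane library. APLN, the peptide ligand apelin, had 828 and 238 reads (-1.04, -1.25 to -0.83), while its receptor APLNR was at 0.24 (-0.18 to 0.66). The semaphorin and VEGF coreceptors NRP1 (-0.85) and NRP2 (0.60) lay on opposite sides. The tip cell ligand DLL4 was at -0.10 (-0.71 to 0.48) with 71 and 39 reads. The arterial Notch target HEY1 was at -0.39 (-0.63 to -0.16), while HEY2 was at 0.12 (-0.30 to 0.54) and HES1 at 0.53 (0.05 to 1.03). These Notch targets shared no direction.

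Of the 6 endothelial transcription factors, 1 was higher (16.7%) and 0 lower at 2-fold, against 7.56% and 5.47% of all genes tested. The median log2 ratio of the 6 was 0.40. SOX17 and SOX18, of the SoxF family that acts in endothelial and arterial fate, gave the largest values. SOX17, linked to arteries, had 17 control and 24 sevoflurane reads, or 1.01 and 2.42 CPM (1.14, 0.30 to 2.24). This rests on few reads, and when control reads were drawn at random to match the sevoflurane depth, its ratio was 0.98 and no longer passed 2-fold. SOX18 had 72 and 73 reads (4.28 and 7.35 CPM, 0.76, 0.29 to 1.27), and SOX7 had 76 and 57 reads (0.33, -0.18 to 0.86). The ETS factor ERG had 173 and 142 reads (0.47, 0.14 to 0.80), and its relative FLI1 had 15 and 11. LEF1, a nuclear effector of Wnt signaling, was at -0.12 (-0.43 to 0.19) with 255 and 139 reads. LEF1 and FLI1 could not be told from equal expression.

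Of the 3 lowest ratios among the 45 genes, 2 were those of the barrier genes SLC7A5 and MFSD2A. None of the 8 barrier genes passed 2-fold, against 7.56% higher and 5.47% lower among all genes tested. The median log2 ratio of the 8 was -0.13. The tight junction genes showed no shared direction. CLDN5, the main claudin of the barrier, had 323 and 220 reads, or 19.2 and 22.2 CPM (0.20, -0.05 to 0.46). OCLN, which encodes occludin, had 181 and 82 reads (-0.38, -0.78 to 0.00). TJP1, the scaffold ZO-1 found in many cell types, had 4010 and 2968 reads (0.32, 0.26 to 0.39).

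Of the 4 transporter genes of the barrier, MFSD2A, SLC7A5 and ABCG2 were below equal expression beyond counting error, none of them by 2-fold. Among all genes tested, 28.1% were below equal expression by that rule. MFSD2A, a lipid transporter that restrains vesicle traffic across the endothelium, had 355 control and 119 sevoflurane reads, or 21.1 and 11.98 CPM (-0.81, -1.13 to -0.51). SLC7A5, a carrier of large neutral amino acids that neurons and glia also express, had 2795 and 934 reads, or 166 and 94.1 CPM (-0.82, -0.93 to -0.72). Both passed a threshold of 1.5-fold downward, and with EGFL7 they were the only 3 of the 45 genes that did, where 11.9% of all genes tested did so. ABCG2, an efflux pump, had 880 and 386 reads (-0.43, -0.61 to -0.26), whereas the pump ABCB1, or P-glycoprotein, had 518 and 341 (0.15, -0.05 to 0.36). ABCB1 overlaps RUNDC3B by gene order, with 657 and 470 reads, and reads of the pair could be shared. PLVAP, which builds the diaphragms of leaky vessels and is low in a mature barrier, had 116 and 75 reads (0.13, -0.31 to 0.56). PLVAP reads per CLDN5 read were 0.359 (0.288 to 0.445) and 0.341 (0.259 to 0.445), which overlap almost fully.

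Among further endothelial genes, 16 of 17 were in the table. Of these, 1 was higher (6.25%) and 0 lower, against 7.56% and 5.47% of all genes tested. The median was 0.16, the same as that of the 34. The adrenomedullin receptor subunit RAMP2, which other cells also express, had 108 and 158 reads (1.29, 0.95 to 1.67). The junction cadherin CDH5 was at 0.32 (0.08 to 0.57), and the glucose carrier SLC2A1 at -0.04 (-0.17 to 0.09). Of the 14 genes of Wnt signaling and barrier induction in the table, none passed 2-fold in either direction and the median was -0.03. The values ran from -0.91 for the Norrin ligand NDP (171 and 53 reads) to 0.60 for the coreceptor LRP5 (587 and 527 reads). None of 13 basement membrane genes passed 2-fold either, with values between -0.57 (SPARC) and 0.62 (LAMA5). Among 10 tested tight junction genes outside the 45, CLDN11, a claudin of myelin and meninges, was lower (1303 and 260 reads, -1.56). That gene moved with the oligodendrocyte markers, of which 6 of 7 were lower, against 5.47% of all genes tested.

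The 4 adhesion and activation genes had a median log2 ratio of 0.62, the same with SELE at its bound. ICAM1, which binds leukocyte integrins and is induced in inflamed endothelium, had 34 and 36 reads, or 2.02 and 3.63 CPM (0.80, 0.12 to 1.56). VCAM1, another leukocyte ligand, had 101 and 82 reads (0.45, 0.02 to 0.89). SELE, the selectin that activated endothelium displays, had 0 control and 10 sevoflurane reads and was at least 5.64-fold higher, against the floor of 3 reads in the control library. NOS3, the endothelial nitric oxide synthase, had 156 and 88 reads (-0.07, -0.46 to 0.32). All values but those of NOS3 and VCAM1 rest on under 50 reads in each library.

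Related inflammatory genes did not share a direction. Of 15 such genes, 8 were tested, 1 was higher and 1 lower (12.5% each, against 7.56% and 5.47% of all genes tested). NFKBIA, an inhibitor and target of NF-kappaB, had 307 and 505 reads (1.47, 1.27 to 1.69), and PTGS2, the inducible cyclooxygenase that cortical neurons also express, had 487 and 57 (-2.31, -2.76 to -1.94). TNFAIP3, a further NF-kappaB target, was at -0.64 (-1.10 to -0.22). SELP, the selectin of endothelial granules and platelets, had 1 and 9 reads and did not reach 1 CPM. Among chemokines, CX3CL1, which neurons also express, had 5514 and 4961 reads (0.61, 0.55 to 0.66), CCL2 had 0 and 4 reads, and CXCL8 and CXCL10 had 0 in both libraries. Of the leukocyte and platelet genes, the platelet integrin ITGA2B had 35 and 50 reads (1.22, 0.62 to 1.94) and the leukocyte gene PTPRC 76 and 64 (0.50, 0.01 to 1.01). S100A8 (0 and 11 reads, at least 6.20-fold higher) and S100A9 (0 and 15 reads, at least 8.46-fold higher), which neutrophils and monocytes carry, reached 1 CPM only in the sevoflurane library. The sum of the 9 leukocyte and platelet genes in the table was 8.09 CPM in control and 16.9 CPM in sevoflurane tissue. The part of blood in the SELE, ICAM1 and VCAM1 values was not tested.

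**Figure D4:**
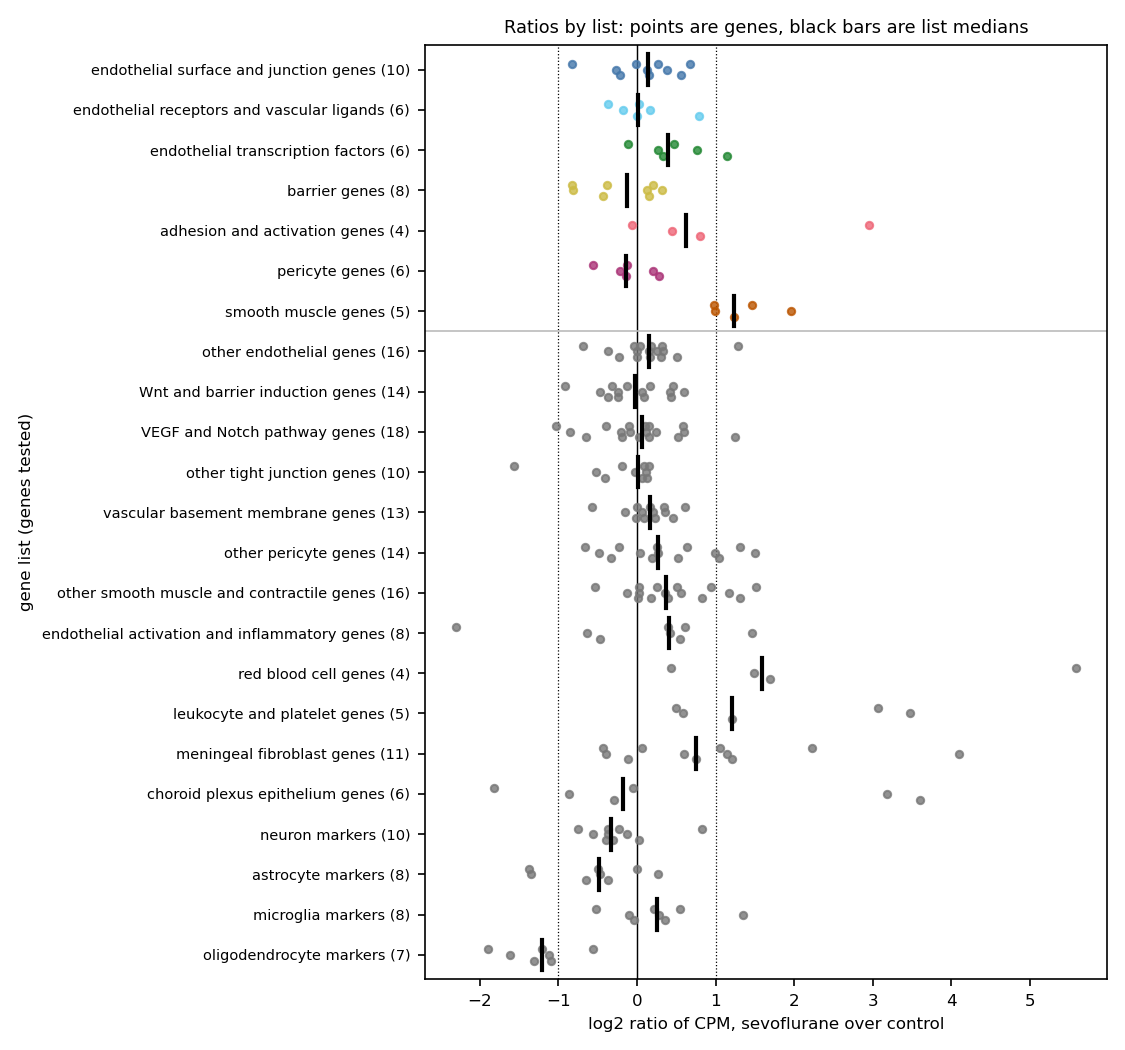
Log2 ratio of each tested gene (points) by list, with the list median as a black bar and the number of genes tested in brackets. Lists above the grey line are the 45 vascular genes by role, and those below it are related pathways and markers of other cells. The smooth muscle median of 1.24 stands to the right of those of the endothelial surface genes (0.14), the pericyte genes (-0.14) and the barrier genes (-0.13). Some genes passed the filter only through their sevoflurane reads. Among them are SELE, CNN1, FLI1, PGF, TTR, KCNJ13 and part of the red blood cell and leukocyte lists.

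The markers of the main brain cell types give the scale of the other differences between the libraries. Neuron markers had a median log2 ratio of -0.33 over 10 genes, astrocyte markers -0.48 over 8 and oligodendrocyte markers -1.21 over 7, while microglia markers were at 0.25 over 8. The endothelial median of 0.16 and the pericyte median of -0.14 thus lay nearer to 0 than those of the neuronal, astrocytic and oligodendrocyte lists. AQP4, the water channel of the astrocyte endfeet that cover brain vessels, had 6178 control and 1404 sevoflurane reads (-1.38, -1.46 to -1.29). GJA1, the endfoot gap junction gene, had 3690 and 1550 reads (-0.49, -0.58 to -0.41).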

How the data were processed

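The deposited file gives raw counts (whole numbers of reads, not normalized by the authors) for 33618 genes in the 2 libraries. The submitters' processing notes name HISAT2 2.0.4, and the counting tool, genome build and annotation are not given in the sources used here. Columns were matched to groups by the sample titles. TMM factors (edgeR 4.0.16, R 4.3.3) used the 18050 genes that reached 1 CPM in at least 1 library. Log2 ratios used a prior count of 2, and intervals were exact Clopper-Pearson limits at the 95% level (scipy 1.17.1). With 1 library per group no test between conditions could be fitted. A fold against 0 reads is given as a bound, with the library at 0 set to a floor of 3 reads (0.179 CPM for the control, 0.302 CPM for sevoflurane).

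The vascular genes and all gene lists were chosen with earlier results of these data known. The genes named are all 45 vascular genes and, of the related lists, those past 2-fold or, where none was, the highest and lowest ratio. Others named from those lists were chosen after their values were seen. All 45 symbols were found in a RefSeq gene table (assembly MMU8v2.0), used for neighbouring genes only: 10 of the 45 overlap a gene that holds reads here. No transcript lengths, proteins or promoters were used, so levels were not compared between genes and no motif was searched. The calculation was tested on simulated data. Plots were drawn with matplotlib 3.10.9.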

Additional observations from a re-analysis of the deposited data

How the results depend on the processing

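The count of vascular genes at least 2-fold apart moved with the threshold and with the filter. At 1.5-fold, 11 genes were higher and 3 lower, against 14.4% and 11.9% of all genes tested, and at 4-fold 1 was higher (SELE). With a filter of 5 CPM, which leaves out SOX17, CNN1 and SELE, 2 were higher (ACTA2 and MYH11). With library totals or a prior count of 0.5, TAGLN and DES also passed, giving 7, and with upper quartile factors TAGLN did, giving 6. DESeq2 1.42.0 size factors, a filter of 1 read and a 99% interval left the count at 5, and the control library sampled down gave 4, without SOX17. Apart from the 1.5-fold threshold, none of these alternatives gave a lower gene. The other scalings shifted all genes by 0.0053 to 0.027 on the log2 scale. All 225 recomputed single ratios stayed inside their counting intervals, and the sign changed only for VWF and KDR, both near 0. For the other scalings staying inside was largely fixed in advance, because those shifts are small beside the intervals. In an alternative chosen after seeing the data, the endothelial sum without TJP1, SLC7A5 and PODXL had a log2 ratio of -0.014 in place of 0.04. The smooth muscle median ranged from 1.18 to 1.27, and that of the adhesion genes from 0.19 to 0.65, the lowest with the 5 CPM filter. No paired analysis was possible because there is only 1 library per group, and no replicate could be left out for the same reason. Depth limits the genes with few reads most, and 8 of the 45 had under 50 reads in at least 1 library.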

Other observations

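Genes of striated muscle, listed as markers of tissue outside the brain, had few reads. The cardiac troponin gene TNNT2 had 75 reads in the control and 145 after sevoflurane, a log2 ratio of 1.68 (95% interval 1.30 to 2.13), and the skeletal actinin ACTN3 had 6 and 13 reads (1.53, 0.38 to 3.56). ACTN3 reached 1 CPM only in the sevoflurane library. Of the 5 markers of tissue outside the brain in the table, the other 3 had 0 reads in both libraries. They were the liver genes ALB and APOA1 and the pancreatic gene INS.

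The choroid plexus genes, 6 of 8 of them tested, split in direction. TTR, the transthyretin gene, had 2 and 31 reads (3.61, 2.74 to 7.82) and the channel KCNJ13 3 and 28 reads (3.18, 2.29 to 6.34), while CLIC6, a chloride channel relative, had 126 and 20 reads (-1.82, -2.66 to -1.21). TTR and KCNJ13 reached 1 CPM only in the sevoflurane library. Summed over the 8 genes the levels were 26.7 CPM for the control and 23.3 CPM for the sevoflurane library.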
